A study of Mus musculus with 8 samples.

Results

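The genes described are 10 keratins of stratified surface epithelium, Krt5, Krt14, Krt15, Krt4, Krt13, Krt16, Krt17, Krt6a, Krt10 and Krt1. They were taken as every probe set of the array whose platform annotation gives one of these symbols alone. The rule found 16 probe sets of 10 genes, among 22626 probe sets and 12393 genes in all, and a further probe set shared by Krt17 and Krt14 is described on its own. Total RNA of mouse eyes, made with Trizol and cleaned up on RNeasy columns, was hybridised to 8 expression arrays. The groups were KPAW eyes at 1 month, wild-type eyes at 1 month, KPAW eyes at 5 days and wild-type eyes at 5 days, with 2 arrays, I and II, in each. The labels do not say what KPAW stands for, which allele it carries or what the arrays of a group share. They give C57Bl6 for the 5-day wild type and no strain for the other 3 groups. Whether the arrays of a group came from separate animals is not stated, so every p-value measures the spread between these arrays, which may be technical. Signals are the authors' values per probe set, scaled here so that all arrays have the same trimmed mean, and have no further unit. That they are linear was inferred from their fixed lowest value and long upper tail and is stated in no source used here, and every fold below assumes it.

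Keratins are the intermediate filament proteins of epithelial cells. A filament is built from heteropolymers of an acidic and a basic keratin, so the genes are used in pairs that mark a layer or a kind of epithelium. Krt5 (basic) with Krt14 (acidic) marks the basal layer of stratified epithelia, and Krt15 is a further acidic keratin of basal cells. Krt4 (basic) with Krt13 (acidic) is the pair of the upper layers of non-keratinizing mucosa, which includes the conjunctiva. Krt6a (basic) pairs with Krt16 and Krt17 (acidic) in skin appendages and in stressed or wounded epithelium. Krt1 (basic) with Krt10 (acidic) fills the suprabasal layers of keratinizing epidermis, such as lid skin. The differentiated corneal epithelium is marked by another acidic keratin, Krt12.

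In the RefSeq annotation of GRCm38.p6, 6 of the genes, Krt14, Krt15, Krt13, Krt16, Krt17 and Krt10, lie on chromosome 11 and the other 4, Krt5, Krt4, Krt6a and Krt1, on chromosome 15. Several are direct neighbours with no protein-coding gene between them, namely Krt13 and Krt15, Krt14 and Krt16, Krt16 and Krt17, and Krt6a and Krt5. The basal partners Krt5 and Krt14 thus sit on different chromosomes. On chromosome 11 Krt13 lies near Krt14, with Krt15, Krt19 and Krt9 between them. Krt10 lies farther off, with 50 protein-coding genes between it and Krt13. Promoter windows of 300 bases, from 250 before to 50 after an annotated start, were available for only 4 genes, Krt5, Krt14, Krt13 and Krt10. They are printed because these were the genes with a window, and not because of their signals. A printed window may lie at an alternative start, and which start is used in the eye was not tested. The sequences are RefSeq's for GRCm38.p6, read on the minus strand, which is the coding strand of each gene. Capitals mark matches on either strand to a short list of motifs, and no matches overlap. The core promoter element was searched as TATAAA. The box bound by Klf factors was searched as CACCC. The site of AP-1 factors was searched as TGANTCA. The site of AP-2 factors was searched as GCCNNNGGC. The box of Sp factors was searched as GGGCGG.
Krt5, chr15:101712856-101713155: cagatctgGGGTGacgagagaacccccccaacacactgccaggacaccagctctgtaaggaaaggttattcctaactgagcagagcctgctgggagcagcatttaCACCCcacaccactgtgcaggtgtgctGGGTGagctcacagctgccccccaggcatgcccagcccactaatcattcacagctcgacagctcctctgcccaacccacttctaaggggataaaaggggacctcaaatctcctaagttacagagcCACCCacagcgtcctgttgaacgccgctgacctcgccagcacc
Krt14, chr11:100205981-100206280: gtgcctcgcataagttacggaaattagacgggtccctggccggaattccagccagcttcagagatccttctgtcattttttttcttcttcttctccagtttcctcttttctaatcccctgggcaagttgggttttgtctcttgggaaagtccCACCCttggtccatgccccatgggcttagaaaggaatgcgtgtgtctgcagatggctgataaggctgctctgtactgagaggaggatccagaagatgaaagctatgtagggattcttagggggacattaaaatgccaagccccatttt
Krt13, chr11:100121517-100121816: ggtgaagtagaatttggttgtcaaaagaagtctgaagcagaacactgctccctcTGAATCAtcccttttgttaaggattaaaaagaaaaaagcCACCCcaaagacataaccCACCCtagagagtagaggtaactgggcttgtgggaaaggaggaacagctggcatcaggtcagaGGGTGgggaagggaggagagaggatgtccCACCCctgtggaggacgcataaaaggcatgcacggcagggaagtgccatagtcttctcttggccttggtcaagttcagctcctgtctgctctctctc
Krt10, chr11:99389315-99389614: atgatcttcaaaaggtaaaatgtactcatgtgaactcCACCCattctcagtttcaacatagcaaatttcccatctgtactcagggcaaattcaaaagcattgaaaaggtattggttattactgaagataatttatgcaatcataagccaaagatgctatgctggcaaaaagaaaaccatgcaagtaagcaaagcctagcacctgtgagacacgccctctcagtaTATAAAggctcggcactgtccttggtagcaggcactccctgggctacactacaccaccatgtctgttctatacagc
All 4 windows hold the Klf box, which 57.5% of 32851 promoter windows of this length hold. The AP-1 letters are in the Krt13 window only among these 4, at -196 from the start, and at -183 and -34 in a second annotated Krt13 window that is not printed, and in 7.81% of all windows. The TATAAA letters are in the Krt10 window only among these 4, at -26 from the start, and in 13.6% of all windows. None of the 4 holds the AP-2 letters (16.6% of all windows) or the Sp letters (35.7%). These are matches of letters and not sites shown to be bound.

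Single arrays differed in ways that touch the keratins. KPAW I at 1 month stood apart: 5 rod photoreceptor markers summed to 0.615 there, against 24.1 in array II of KPAW and 21.3 and 26.6 in the wild-type arrays of that age, and to 5.24 to 5.82 on the 5-day arrays. Krt12 had 0.391 and 5.13 in KPAW arrays I and II at 1 month, against 6.77 and 7.82 in wild type. Log2 signals of the replicate arrays correlated at 0.927 in KPAW and 0.969 in wild type at 1 month, and at 0.946 and 0.964 at 5 days. Sex-linked transcripts also differed. At 5 days Xist, the RNA of the inactive X chromosome, had 0.0821 and 3.14 in KPAW arrays I and II, against 2.95 and 3.63 in wild-type arrays, and it had 0.0524 to 0.0861 on the 4 arrays at 1 month. The Y-linked Eif2s3y had 0.0923 to 0.149 on the 5 arrays with low Xist and sat at the floor of 0.01 in the deposited values on the other 3. Age and these sex markers thus cannot be told apart in wild type, and their part in the results below was not tested.

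The first comparison was KPAW against wild-type eyes at 1 month. Of the 10 keratins, 9 had a higher signal on both KPAW arrays than on either wild-type array, and Krt5 was slightly lower. None of their 15 probe sets kept for testing passed limma's test at an adjusted p under 0.05 over all 15838 probe sets kept, of which 0.0253% were called. That share rests on single arrays, since 563 of all probe sets were called without KPAW II at 1 month, and 0 without KPAW I or either wild-type array of that age. At an unadjusted p under 0.05 there were 5 keratin probe sets, against 1097 of all 15838. Probe sets with separate groups numbered 14 of 15 in the higher direction, which 16.9% of all probe sets showed, and 1 of 15 in the lower direction, which 19.8% showed. The median log2 difference of the 15 probe sets was 1.93, against -0.01 over all probe sets. In whole-eye RNA, more cells of a type and more RNA per cell cannot be told apart.

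The suprabasal epidermal pair had differences of over 4 on the log2 scale, which the test did not call. Krt1 had signals of 3.93 and 2.09 in KPAW eyes I and II at 1 month, against 0.128 and 0.126 in wild-type eyes. Krt10, its acidic partner, had 5.79 and 1.89 in KPAW eyes, against 0.127 and 0.145 in wild-type eyes. Both wild-type arrays were low and alike, and both KPAW arrays were far above them, with KPAW I the higher. The log2 difference was 4.29 (SE 1.17, limma adjusted p = 0.606) for Krt1 and 4.41 (SE 1.04, adjusted p = 0.485) for Krt10. Without KPAW I, the array that stands apart, the differences were 3.84 and 3.61. Fitted on the 4 arrays of this age alone, which leaves 5-day spread out of the error, both passed, with limma adjusted p of 0.0182 for Krt1 and 0.0471 for Krt10. That fit had 2 residual degrees of freedom and called 19 of all 15838 probe sets. Of 19 alternatives, each gene passed in 2, this fit and that of values as deposited. With array weights the lowest limma adjusted p of any keratin probe set was 0.838.

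Among the basal-layer keratins the acidic Krt14 was higher in KPAW eyes on both arrays, and its partner Krt5 was close to wild type. Krt14 had 4.05 and 3.14 in KPAW eyes at 1 month, against 0.591 and 0.597 in wild-type eyes. Krt5 had 4.43 and 4.19 in KPAW eyes, against 4.62 and 4.55 in wild-type eyes. So Krt14 lay well above wild type on both KPAW arrays, while Krt5 was slightly lower on both. The log2 difference was 2.54 (SE 1.08, adjusted p = 0.675) for Krt14 and -0.09 (SE 0.66, adjusted p = 0.980) for Krt5, and these differences lay 2.63 apart. Krt15 had 5.80 and 4.70 in KPAW eyes, against 3.18 and 4.04 in wild-type eyes, a log2 difference of 0.54 (SE 0.38, adjusted p = 0.710). The groups did not overlap for Krt15, but the gap between them was smaller than the gap within either. Krt14 passed in a fit of the 4 arrays of 1 month alone (limma adjusted p = 0.0182) and when either 5-day KPAW array was left out (adjusted p = 0.0108 without I and 0.0101 without II). These were the only 3 of 19 alternatives in which Krt14 passed. The spread of the 5-day KPAW arrays enters the standard error of the fit over all 8 arrays.

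The mucosal pair had higher signals on both KPAW arrays too. Krt4 had 5.39 and 3.62 in KPAW eyes at 1 month, against 1.02 and 1.27 in wild-type eyes. Krt13 had 3.81 and 2.83 in KPAW eyes, against 0.652 and 0.897 in wild-type eyes. The partners differed by similar amounts, 1.93 on the log2 scale for Krt4 (SE 1.42, adjusted p = 0.723) and 2.07 for Krt13 (SE 0.91, adjusted p = 0.675). Krt13 passed when either 5-day KPAW array was left out (limma adjusted p = 0.0343 without I and 0.0325 without II).

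The stress and appendage keratins were unequal. Krt16 had 1.69 and 0.765 in KPAW eyes at 1 month, against 0.0839 and 0.0135 in wild-type eyes. Krt17 had 0.637 and 0.257 in KPAW eyes, against 0.0357 and 0.0405 in wild-type eyes. Krt6a, their basic partner, had 5.94 and 4.94 in KPAW eyes, against 2.73 and 3.03 in wild-type eyes. All 3 had separate groups, and Krt16 and Krt17 were low in wild type, with Krt16 on array II below the pseudocount of 0.0211 that was added before taking logs. Log2 differences were 4.27 for Krt16 (SE 1.62, adjusted p = 0.675), 2.85 for Krt17 (SE 1.26, adjusted p = 0.675) and 0.91 for Krt6a (SE 1.10, adjusted p = 0.831). Krt16 and Krt17 are understated on this scale, because their wild-type signals lie close to the pseudocount.

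**Figure D1:**
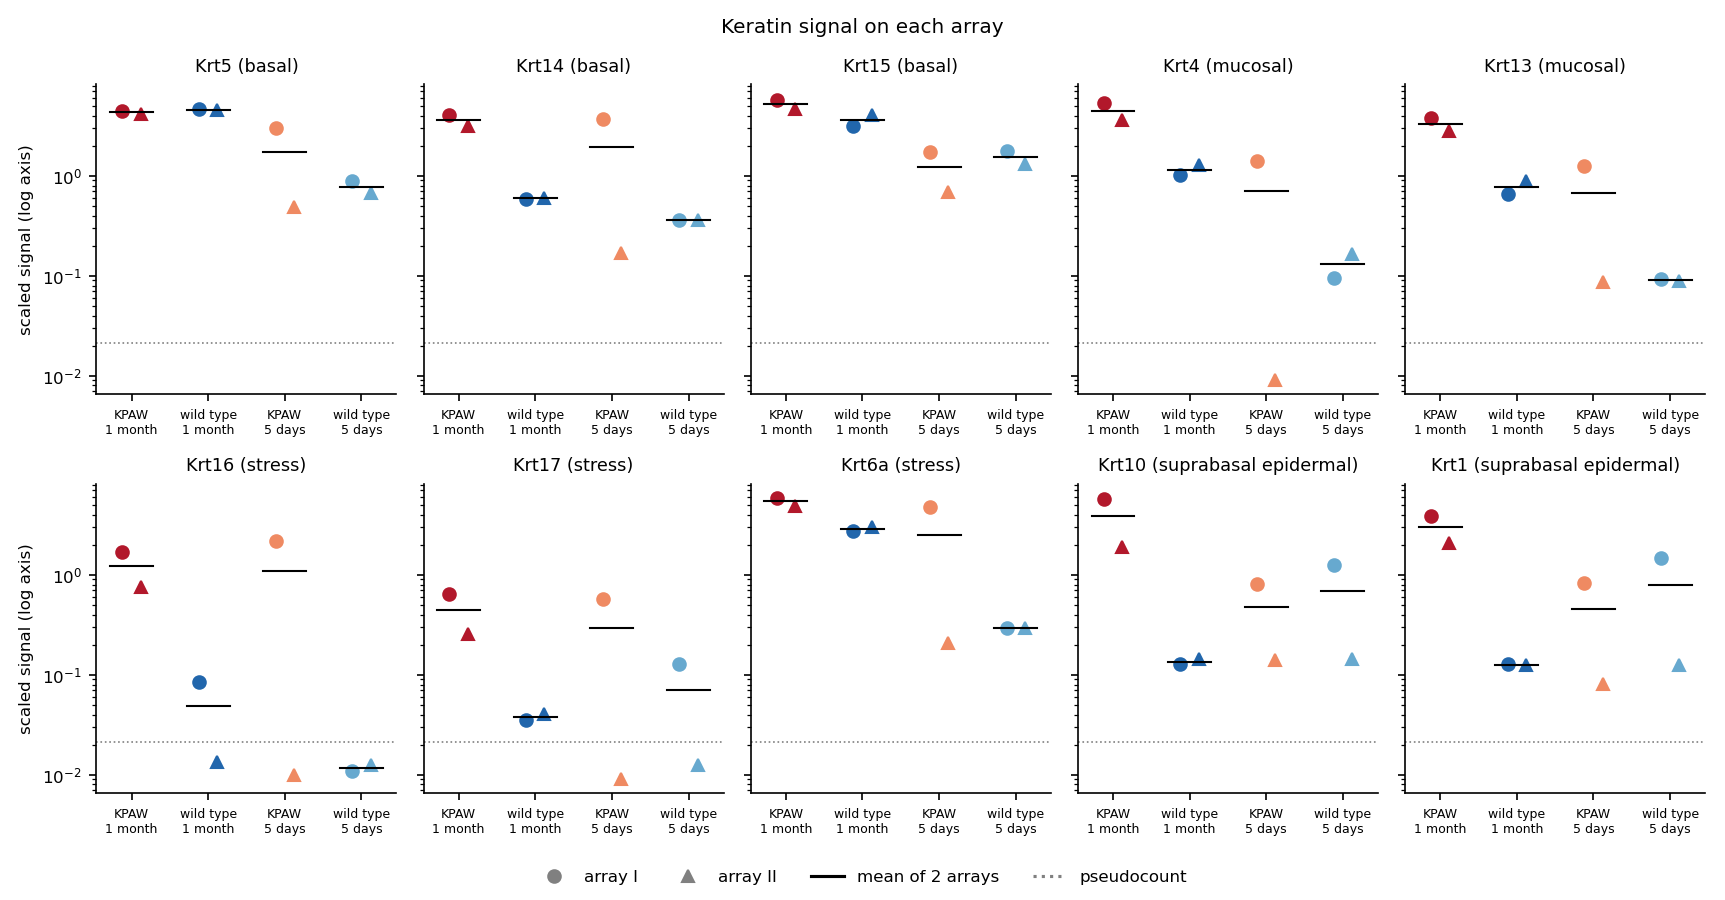
Scaled signal (log axis) of each keratin's representative probe set on the 8 arrays, with circles for array I, triangles for array II, a bar for the mean of each group of 2 arrays and a dotted line at the pseudocount. At 1 month both KPAW arrays lie above both wild-type arrays for 9 genes and slightly below them for Krt5, and at 5 days the 2 KPAW arrays lie far apart.

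Markers of other cell types were read on the same arrays at 1 month, and limma called none of them by genotype. As sums, those of epidermis, goblet cells, neutrophils and meibomian and sebaceous gland were higher in KPAW eyes. Those of hair follicle and of lacrimal or Harderian gland overlapped, and those of cornea were lower. Meibomian and sebaceous markers summed to 1.65 and 1.31 in KPAW eyes, against 1.06 and 0.981 in wild-type eyes. Lacrimal or Harderian markers summed to 3.82 and 2.90 in KPAW eyes, against 3.92 and 3.75 in wild-type eyes. The 10 markers of keratinizing epidermis on the array summed to 10.7 and 4.04 in KPAW eyes, against 0.213 and 0.248 in wild-type eyes. All 8 kept for testing had separate groups, higher in KPAW, against 16.9% of all probe sets. None was called by limma, and 7 had an unadjusted p under 0.05, against 1097 of all 15838 probe sets. The filter used the mean signal over all 8 arrays. In this and the lists below, a marker low in wild type could thus be kept through its KPAW signal, which favours such counts. Lor (loricrin) and Krtdap sat at the floor of 0.01 on both wild-type arrays, and Ivl (involucrin) was there on all 8 arrays. The 7 markers of conjunctival goblet cells summed to 7.01 and 2.37 in KPAW eyes, against 1.03 and 0.612 in wild-type eyes. All 5 kept had separate groups, higher in KPAW, against 16.9% of all probe sets. The 18 hair follicle markers summed to 0.518 and 0.484 in KPAW eyes, against 0.474 and 0.506 in wild-type eyes, with overlapping sums. Of the 14 kept, 5 were separate and higher in KPAW and 1 separate and lower, against 16.9% and 19.8% of all probe sets. The 6 corneal epithelium markers summed to 12.04 and 18.1 in KPAW eyes, against 23.9 and 26.5 in wild-type eyes. Of these, 5 had separate groups, lower in KPAW, against 19.8% of all probe sets. The other, Clu, was separate and higher, with 4.98 and 4.14 in KPAW eyes, against 3.52 and 3.91 in wild-type eyes. The 5 neutrophil markers summed to 1.03 and 0.386 in KPAW eyes, against 0.189 and 0.103 in wild-type eyes. Of the 3 kept, 2 had separate groups, higher in KPAW, against 16.9% of all probe sets. At 5 days the sums were 0.888 and 0.129 in KPAW eyes, against 0.135 and 0.120 in wild-type eyes. The part of the tissue make-up of each sample in the keratin differences was not tested.

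**Figure D2:**
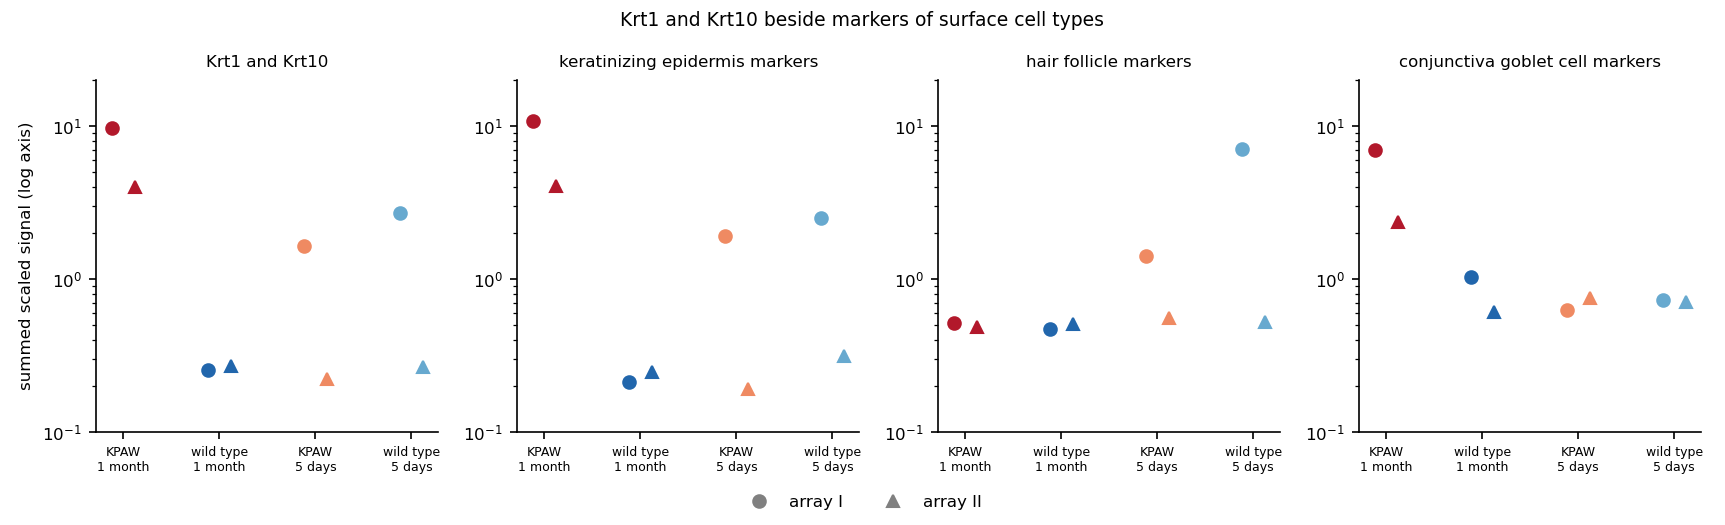
Summed scaled signal (log axis) of Krt1 and Krt10 and of the markers of keratinizing epidermis, hair follicle and conjunctival goblet cells on each array. At 1 month the 2 KPAW arrays are above both wild-type arrays in every panel except hair follicle, and at 5 days array I of wild type is the highest for hair follicle.

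At 5 days the comparison of KPAW with wild-type eyes gave no called keratin probe set, and limma called 0% of all 15838 probe sets. No keratin probe set reached an unadjusted p under 0.05, against 377 of all 15838. None of 15 had separate groups, against 17% of all probe sets separate and higher and 16.5% separate and lower. The KPAW arrays lay far apart, with array I more than 2-fold above array II for all 10 genes, by 1.29 to 6.14 on the log2 scale (median 3.92). Over all probe sets kept, 2.2% were more than 2-fold higher on KPAW I than on KPAW II.

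Krt16 had 2.18 in KPAW I and 0.01 in KPAW II at 5 days, while both wild-type arrays were at the lowest listed value. Krt6a had 4.76 and 0.209 in KPAW eyes, against 0.295 and 0.293 in wild-type eyes. Krt14 had 3.69 and 0.169 in KPAW eyes, against 0.361 and 0.363 in wild-type eyes. In each of these genes KPAW I was high and KPAW II was as low as wild type or lower. Krt5 had 2.995 and 0.490 in KPAW eyes at 5 days, against 0.881 and 0.680 in wild-type eyes. Krt4 had 1.40 on array I of KPAW and the lowest listed value on array II, whereas wild-type eyes had 0.0948 and 0.165. Krt13 had 1.26 and 0.0869 in KPAW eyes, against 0.0932 and 0.0885 in wild-type eyes. These 3 genes too were high in KPAW I only. Krt15 varied least, with 1.73 and 0.694 in KPAW eyes, against 1.79 and 1.31 in wild-type eyes, so KPAW I was within the wild-type range and KPAW II below it.

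Krt1, Krt10 and Krt17 were also high on array I of wild type at 5 days. Krt1 had 0.835 and 0.0809 in KPAW eyes at 5 days, against 1.47 and 0.124 in wild-type eyes. Krt10 had 0.814 and 0.141 in KPAW eyes, against 1.25 and 0.143 in wild-type eyes. Krt17 had 0.576 and 0.130 on array I of KPAW and of wild type, and both arrays II were at the lowest listed value. Array I of wild type was thus more than 2-fold above array II for these 3 of the 10 genes, against 1.02% of all probe sets. Hair follicle markers summed to 1.42 and 0.555 in KPAW eyes, against 7.05 and 0.522 in wild-type eyes, and epidermal markers to 1.90 and 0.192 in KPAW eyes, against 2.51 and 0.312 in wild-type eyes. Array I of KPAW is also the 5-day array with the low Xist signal.

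When KPAW II was left out at 5 days, 8 of the 15 keratin probe sets passed limma's test in the higher direction, against 0.164% of all probe sets in that fit, with the remaining array assumed to vary like the others. The log2 differences of KPAW I from wild type were then 3.28 for Krt14, 3.51 for Krt13, 3.92 for Krt6a, 3.27 for Krt4, 1.92 for Krt5 and 6.07 for Krt16, which is measured against the lowest listed value and is no bound. Without KPAW I none passed. The 5-day calls thus rest on array I of KPAW.

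Across the ages, the keratins were mostly higher at 1 month. In KPAW eyes, 2 of 15 probe sets passed limma's test in the higher direction, against 6.76% of all probe sets, and 11 had separate groups, against 25.2%. Their median log2 difference was 2.15, against -0.04 over all probe sets. Krt15 rose in KPAW eyes, averaging 5.25 ± 0.773 at 1 month and 1.21 ± 0.734 at 5 days (SD, n = 2 each), a log2 change of 2.23 (SE 0.38, limma adjusted p = 0.00910). In a fit of the KPAW groups alone its adjusted p was 0.0512. The other called probe set was the weaker of the 2 for Krt13, with a log2 change of 1.95 (SE 0.53, adjusted p = 0.0463) and 3 of its 8 values at the lowest listed value. That call was lost with no filter, with a filter at the 50th percentile, with the KPAW groups alone, with array weights, and without any single wild-type array, KPAW I at 1 month or KPAW II at 5 days. Without KPAW I at 5 days 14 of the 15 passed in the higher direction, against 5.78% of all probe sets in that fit, and without either array of KPAW at 1 month 1 or 2 did, so the count moved most without array I of KPAW at 5 days, and without array II of that group it was 3.

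In wild-type eyes 1 of 15 probe sets passed limma's test in the higher direction, against 8.78% of all probe sets, and 10 had separate groups, against 32.6%. Krt5 rose, averaging 4.58 ± 0.0508 at 1 month and 0.780 ± 0.142 at 5 days (SD, n = 2 each), a log2 change of 2.53 (SE 0.66, limma adjusted p = 0.0342). Krt6a had a log2 difference of 3.20 (SE 1.10), Krt4 of 2.99 (SE 1.42) and Krt13 of 2.81 (SE 0.91), and none of them passed. Krt14, the partner of Krt5, had 0.68 (SE 1.08). For Krt1 and Krt10 the values ran the other way, at -1.65 (SE 1.17) and -1.54 (SE 1.04), and these rest on array I of wild type at 5 days. The call of Krt5 was lost when any single wild-type array was left out, with adjusted p from 0.114 to 0.147, while its log2 change stayed at 2.35 to 2.72.

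The change of the KPAW difference between the ages was tested as an interaction, and limma called none of the 15 probe sets and 0% of all. At an unadjusted p under 0.05 there were 2, Krt1 at 4.94 (SE 1.65) and Krt10 at 4.72 (SE 1.47), both with an adjusted p of 0.810. Of all 15838 probe sets, 933 had an unadjusted p under 0.05. The other representative probe sets ran from -0.83 for Krt6a to 1.94 for Krt17.

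**Figure D3:**
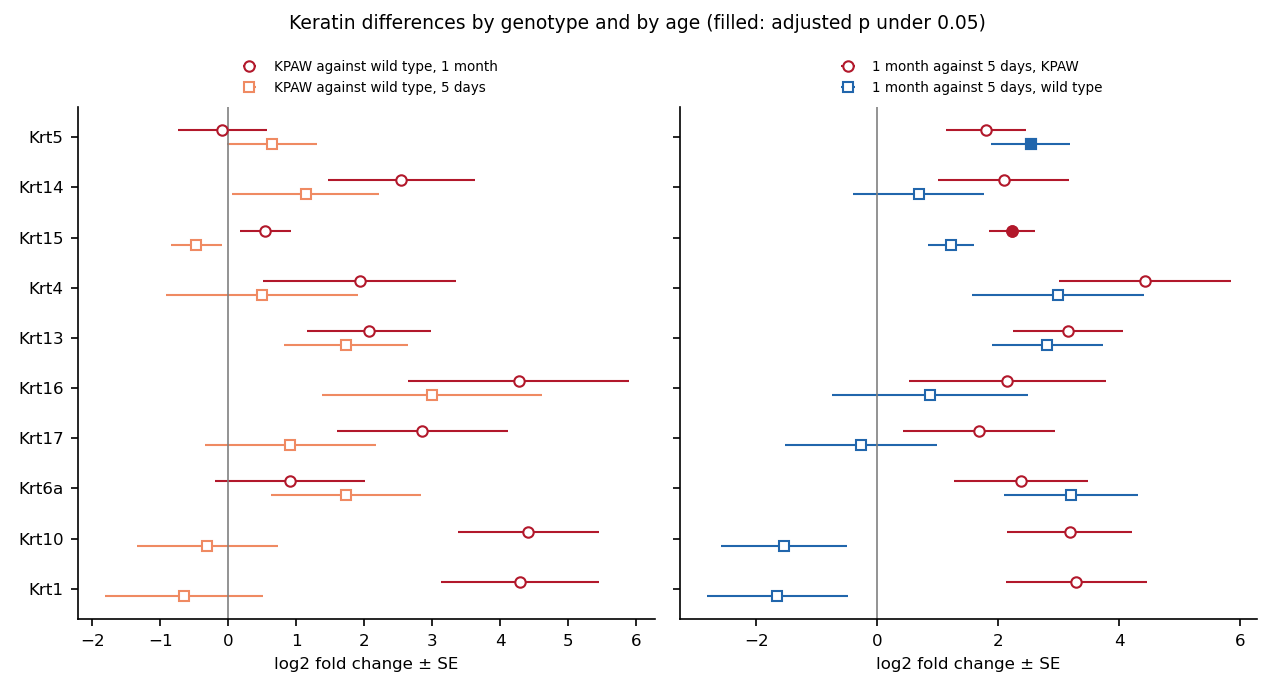
Log2 fold change ± SE of the limma fit for each keratin's representative probe set, by genotype at each age (left) and by age in each kind of eye (right), with filled points for adjusted p under 0.05. No genotype difference is filled, and the filled age differences are Krt15 in KPAW eyes and Krt5 in wild-type eyes.

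Profiles over the 8 arrays were compared by the root mean square distance between centred log2 signals, which is a description of these arrays. The closest pair of the 10 was Krt10 and Krt1 (0.30), partners on different chromosomes. Krt13 and Krt6a came next (0.48), then Krt5 and Krt15 (0.61) and Krt14 and Krt17 (0.69). The partners Krt4 and Krt13 were 0.78 apart and the partners Krt5 and Krt14 1.12 apart. Among direct neighbours, Krt14 and Krt16 lay 1.11 apart, Krt16 and Krt17 1.29, Krt13 and Krt15 1.28, and Krt6a and Krt5 0.77. The widest distance was that of Krt15 and Krt16 (2.24).

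**Figure D4:**
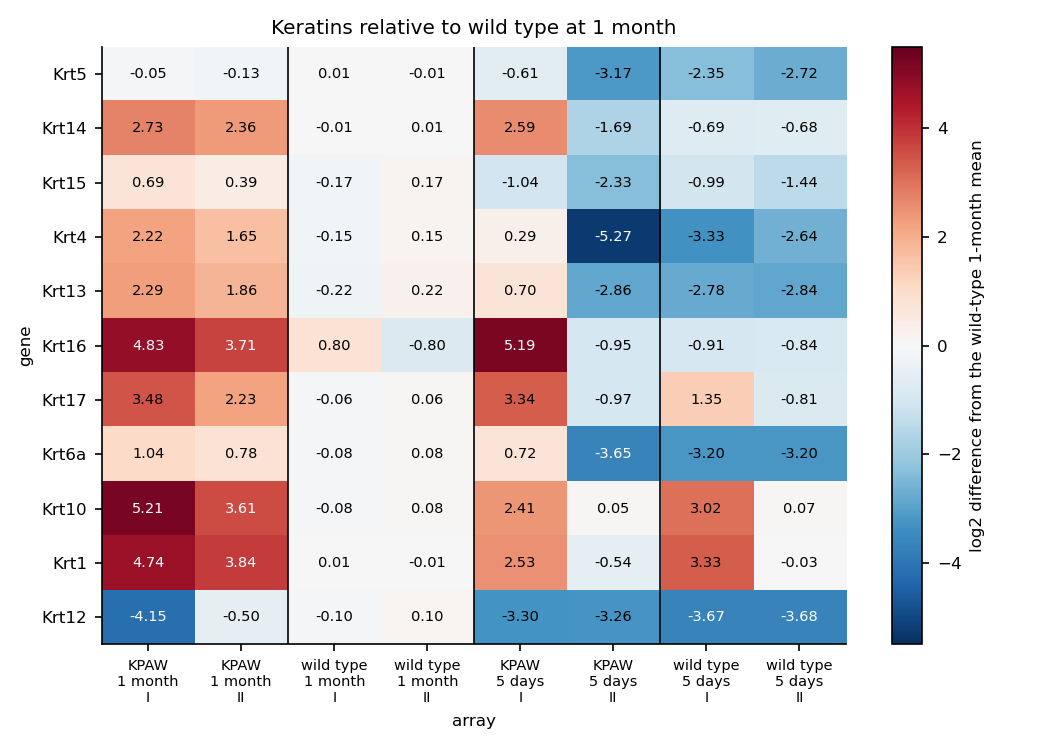
Log2 difference of each array (columns) from the mean of the wild-type arrays at 1 month for the 10 keratins and Krt12 (rows), on a colour scale from blue (lower) to red (higher). KPAW I at 5 days is above the 1-month wild-type level for the keratins other than Krt5 and Krt15, whereas KPAW II at 5 days is below it for 9 of the 10 keratins.

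Of all other genes, those with profiles nearest to each keratin differed by keratin. Perp, a desmosome protein, was nearest to Krt5 (distance 0.22) and Dcxr to Krt15 (0.26). Calm4 was nearest to Krt10 (0.37) and Crct1 to Krt1 (0.25), the second nearest of each being the other's nearest. Arg1 was nearest to both Krt13 (0.38) and Krt4 (0.88), and Krt6b to Krt6a (0.30). Sprr2h was nearest to Krt14 (0.63), Sprr1b to Krt16 (0.64) and Ly6d to Krt17 (0.30). The median distance of all genes ran from 1.00 for Krt15 to 2.59 for Krt16.

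Further probe sets of a gene were compared with the representative ones. For Krt14 the probe set next in signal had the same pattern, with 2.92 and 1.67 in KPAW eyes at 1 month, against 0.480 and 0.309 in wild-type eyes, and a distance of 0.29 from the representative. The remaining one for Krt14 had 0.0765 and 0.0714 in KPAW eyes at 1 month, against 0.0528 and 0.0556 in wild-type eyes, so its groups were separate in the same direction with a much smaller log2 difference of 0.34 (SE 0.19). The 2 probe sets for Krt13 lay 1.21 apart. The weaker had 0.257 and 0.0740 in KPAW eyes at 1 month, against 0.0186 and 0.0475 in wild-type eyes, a log2 difference of 1.64 (SE 0.53). The 3 probe sets for Krt6a lay 0.35 to 0.82 apart. The Krt17 probe set dropped by the filter was at the lowest listed value on 7 of 8 arrays. The probe set shared by Krt17 and Krt14 had 0.0717 and 0.0676 in KPAW eyes at 1 month, against 0.0601 and 0.049995 in wild-type eyes, and cannot be assigned to either gene.

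Genes that work with keratins were set beside them. Of 12 other epithelial keratins kept, none was called by genotype at either age. An unadjusted p under 0.05 was seen for 2 at 1 month and 1 at 5 days, against 1097 and 377 of all 15838 probe sets. Krt12 averaged 2.76 ± 3.35 in KPAW and 7.29 ± 0.741 in wild-type eyes at 1 month (SD, n = 2 each), and Krt7, a simple-epithelium keratin, 0.893 ± 0.306 and 0.337 ± 0.0185. By age, Krt80 rose in KPAW eyes (2.34, SE 0.35, limma adjusted p = 0.00577) and in wild-type eyes (2.16, SE 0.35, adjusted p = 0.00663), Krt7 in KPAW eyes (2.35), and Krt12 (3.67) and Krt6b (3.56) in wild-type eyes, all on the log2 scale. None of 11 desmosome genes was called by genotype. With age, 4 rose in each kind of eye, against 6.76% of all probe sets in KPAW and 8.78% in wild type. They included the plakin genes Evpl (2.13 in KPAW and 2.09 in wild type) and Ppl (1.41 and 1.38).

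Of 8 hemidesmosome genes, which anchor basal keratins to the basement membrane, none was called by genotype. Col17a1, a hemidesmosomal collagen, averaged 0.403 ± 0.0815 in KPAW and 0.826 ± 0.253 in wild-type eyes at 1 month (SD, n = 2 each), a log2 difference of -0.98 (SE 0.34, limma adjusted p = 0.675), and it rose with age in wild type (2.09, adjusted p = 0.00617), as did the integrin subunit Itgb4 (1.41, adjusted p = 0.0154). A list of mainly keratin-binding and crosslinking genes, which also holds the growth factor Epgn, had 7 kept genes, and limma called none in any contrast. By genotype, 3 had an unadjusted p under 0.05 at 1 month and 0 at 5 days, against 1097 and 377 of all 15838 probe sets. Hrnr (hornerin, a filaggrin-like protein) had the largest statistic at 1 month. It averaged 0.135 ± 0.0637 in KPAW eyes, and both wild-type arrays were at the lowest listed value. Among 11 transcription factors known to act on keratin genes none was called by genotype. With age, 4 rose in KPAW and 5 in wild type, against 6.76% and 8.78% of all probe sets. Elf3 (2.19 and 2.71), Ehf (2.14 and 2.40), Klf4 (1.99 and 2.31) and Klf5 (2.18 and 1.81) were called in both kinds of eye.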

How the data were processed

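Per the file headers, each array has a single deposited signal for every probe set. The authors' software and its settings are not given in the sources used here. Deposited signals had a lowest value of 0.01, which 10.0% to 14.9% of an array's probe sets held. They were treated as linear. Of 22690 probe sets, 64 controls were left out of tests. Each array was scaled by its trimmed mean (2% off each end), logged as log2(signal + 0.0211), the 20th percentile of the positive values, and filtered at the 30th percentile of mean signal, which kept 15838 probe sets. Fold changes of low signals are understated on this scale. A limma 3.58.1 fit (R 4.3.3) with 4 group means and a variance trend had 4 residual degrees of freedom, and p-values were adjusted by Benjamini-Hochberg over all probe sets kept. Arrays have no depth, and their number, 2 per group, limits the precision. Tables and plots used Python 3.11.15, pandas 2.3.3 and matplotlib 3.10.9.

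The 10 genes and the lists were chosen with earlier results of these data known. Named were the 10 genes, the 3 other genes nearest to each (the nearest is printed), from each list the called members (up to 4 by size of change) or the 2 with the largest statistics, and Krt12, Xist and Eif2s3y. A gene's representative is its probe set with the highest mean signal. Same-numbered arrays of the groups are not paired by the labels. On simulated data for the 1-month comparison (15838 probe sets) the fit recovered 60% of 2-fold, 100% of 4-fold, 98% of 8-fold and 100% of 16-fold changes and called 12 unchanged probe sets. These rates do not carry over to the keratins, whose representative probe sets had standard errors of 0.38 to 1.62 there. Alternatives were a fit without the variance trend, other scalings, filters and pseudocounts, a fit of only the groups compared, the numeral as a block, a single probe set for each gene, and leaving out each array. Array weights were an alternative added after seeing the data.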

Additional observations from a re-analysis of the deposited data

How the results depend on the processing

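Counts of called keratin probe sets, which were 0, 0, 0, 2 and 1 for KPAW against wild type at 1 month, the same at 5 days, the interaction, age in KPAW and age in wild type, moved by over 1.5 times in 31 of the recalculations and not in 68. At 1 month the count was 3 with values as deposited, against 99 of all 15838 probe sets. It was also 3 with the contrast's groups alone, against 19 of 15838. For the interaction the count was 2 as deposited, against 36 of 15838. For the ages, brackets give the number of all probe sets called higher in the same fit, of 15838 unless stated. For age in KPAW the count was 11 as deposited (873), 1 without a filter (984 of 22626) and 1 with a filter at the 50th percentile (961 of 11313). It was 0 with the groups alone (334) and 5 with the replicate block (1169). It was 1 with 1 probe set per gene (747 of 9492) and 1 with array weights (764). For age in wild type the count was 7 as deposited (3238), 2 with the stricter filter (1183 of 11313) and 8 with the groups alone (1956). It was 3 with the replicate block (1533) and 6 with array weights (1944). The replicate block changed no other of these counts by over 1.5 times. Leaving out each array in turn gave 0 to 2 at 1 month, 0 to 8 at 5 days, 0 to 3 for the interaction, 1 to 14 for age in KPAW and 0 to 8 for age in wild type. With values as deposited the median of all probe sets was -0.26 at 1 month, 0.18 at 5 days, -0.45 for the interaction, -0.01 for age in KPAW and 0.44 for age in wild type. As deposited, 2 differences changed sign, the Krt13 interaction (-0.070) and Krt17 by age in wild type (0.029). Leaving out single arrays changed the sign of all 10 differences at 5 days, which ran from -0.64 to 1.92 for Krt5, -1.01 to 3.28 for Krt14, -1.12 to 0.18 for Krt15, -2.29 to 3.27 for Krt4, -0.051 to 3.51 for Krt13, -0.079 to 6.07 for Krt16, -1.24 to 3.07 for Krt17, -0.45 to 3.92 for Krt6a, -1.79 to 1.16 for Krt10 and -2.33 to 1.03 for Krt1. The same holds for the interaction of Krt5 (-2.01 to 0.55), Krt14 (-0.73 to 3.55), Krt4 (-1.34 to 4.22), Krt13 (-1.44 to 2.12), Krt16 (-1.80 to 4.35), Krt17 (-0.21 to 4.10) and Krt6a (-3.01 to 1.36), for age in KPAW of Krt14 (-0.049 to 4.23), Krt16 (-0.92 to 5.22) and Krt17 (-0.48 to 3.83), and for age in wild type of Krt17 (-1.35 to 0.81) and Krt1 (-3.33 to 0.026). The cause was not tested. Low signals near 0.01 limit Krt16 and Krt17.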
